A study of Mus musculus with 10 samples.

Results

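The CXC and CX3C chemokine axes were described as 10 genes, 7 encoding ligands (Cx3cl1, Cxcl1, Cxcl2, Cxcl10, Cxcl12, Cxcl14 and Cxcl16) and 3 encoding receptors (Cx3cr1, Cxcr4 and Ackr3). They were found by symbol among the 56748 genes of the count table, and each symbol named a single row. Transcripts were counted in 5 libraries that each came from 400000 sorted brain cells carrying CD11b, called microglia here, and in 5 libraries of hemi brains, called bulk brain. All mice were young male C57BL/6 animals, with no treatment named in either group. CD11b is also carried by border-associated macrophages, monocytes and neutrophils, so that the sort alone does not separate microglia from them.

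Chemokines are small secreted proteins that guide cells through G-protein-coupled receptors. Fractalkine, the product of Cx3cl1, is made by neurons as a membrane-bound protein that can be shed, and its receptor CX3CR1 is a hallmark of microglia in the brain. CXCL12 binds CXCR4, which signals through Gi proteins, and ACKR3, an atypical receptor that takes the ligand up. CXCL1, CXCL2 and CXCL10 are inducible ligands that recruit neutrophils or, for CXCL10, activated T cells, and CXCL16 is a membrane-bound ligand of CXCR6.

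The libraries held 25087489 to 34709215 counts each. In bulk brain, replicates 1 and 2 stood apart from replicates 3 to 5 in the astrocyte and oligodendrocyte marker sums given below, and not in total counts. All 12 markers of a microglia list were higher in the sorted cells, with summed levels of 31548 to 32823 CPM (counts scaled to a common library total and corrected for composition) against 232 to 274 CPM. All 12 neuronal markers were lower, with sums of 5.67 to 9.77 CPM in microglia. Markers of other CD11b-positive cells were also present in the sort: border-associated macrophage markers summed to 495 to 641 CPM against 10.8 to 13.6 CPM in bulk brain (8 of 8 higher), monocyte markers to 24.1 to 35.3 CPM (Ccr2 alone at 25.6 CPM, F10 at 0 counts) and neutrophil markers to 7.06 to 17.3 CPM (5 of 5 tested higher). The 8 lymphocyte markers summed to at most 1.51 CPM in either group, and none passed the low-count filter.

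Of the 10 genes, 9 passed the low-count filter and all of these differed between microglia and bulk brain (edgeR quasi-likelihood test, adjusted p under 0.05 over 18969 genes), 5 higher and 4 lower in microglia. Over all genes tested, 37.2% were called higher, 43.9% lower and 81.0% in either direction, so a call alone says little about a member and the levels are given below. The CPM of the groups did not overlap for these 5 higher and 4 lower genes, as for 34.2% and 40.5% of all genes tested. The higher genes were Cx3cr1, Cxcl2, Cxcl10, Cxcl16 and Cxcr4, and the lower genes were Cx3cl1, Cxcl12, Cxcl14 and Ackr3. The tenth gene, Cxcl1, was too low to be tested. Whether each library stands for its own animal is not in the labels, and the p-values therefore reflect only the library-to-library spread, which may be technical. For every gene below, fewer cells of a type and less RNA per cell cannot be told apart in bulk brain.

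**Figure D1:**
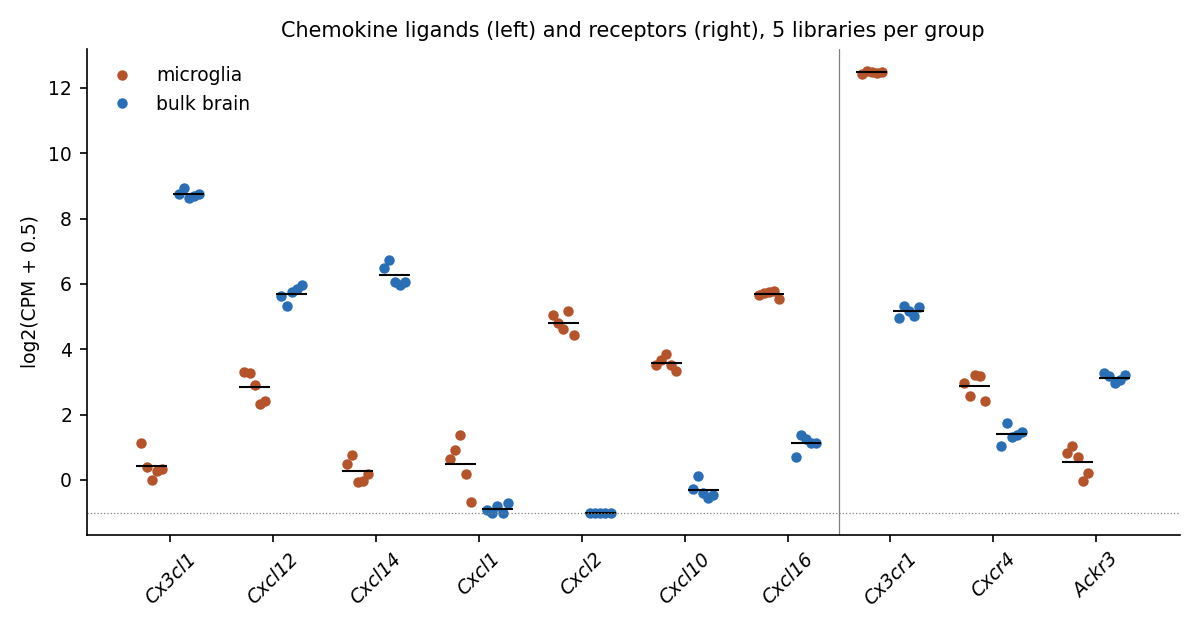
Level of each gene as log2(CPM + 0.5) in 5 microglia and 5 bulk brain libraries (points), with the group mean as a line; ligands are left and receptors right of the vertical line, and the dotted line marks 0 counts. Cx3cl1 and Cx3cr1 stand at opposite ends, and all 5 bulk brain libraries lie on the dotted line for Cxcl2.

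The fractalkine ligand and its receptor lay on opposite sides of the comparison. Cx3cr1 (ENSMUSG00000052336, chromosome 9, 119730682 to 119898945, minus strand, GRCm39) stood at 5544, 5826, 5746, 5619 and 5798 CPM in microglia replicates 1 to 5. In bulk brain it stood at 30.7, 39.9, 35.5, 31.9 and 38.7 CPM. The microglia libraries thus lay within a narrow band, with a coefficient of variation of 2.11%, far above every bulk brain library. The mean was 5707 ± 121 CPM (SD, n = 5) against 35.3 ± 4.06 CPM, a log2 difference of 7.33 ± 0.13 (SE, edgeR adjusted p = 2.8e-12). The annotated span of Cx3cr1 in the table covers 168264 bases and holds other genes, of which Wdr48 was the most abundant in microglia at 79.6 CPM, and the strand setting of the counting is not given in the sources used here.

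Cx3cl1 (ENSMUSG00000031778, chromosome 8, 95498637 to 95509055, plus strand) stood at 434, 486, 393, 409 and 431 CPM in bulk brain replicates 1 to 5. In microglia it stood at 1.71, 0.814, 0.501, 0.716 and 0.750 CPM, with 43 of its 113 counts in replicate 1. The sorted cells held 0.898 ± 0.468 CPM (SD, n = 5), which was 0.209% of the bulk brain mean of 431 ± 35.6 CPM (log2 difference -8.90 ± 0.30 SE, edgeR adjusted p = 1.4e-10). This residue lay within the range of the 12 neuronal markers, which kept 0.0394% (Syt1) to 0.397% (Rbfox3) of their bulk brain levels. It also lay within the wider ranges of astrocyte (0.169% to 25.7%), oligodendrocyte (0.122% to 13.4%) and oligodendrocyte precursor markers (0.069% to 5.26%). The share alone thus does not single out neurons. Per kilobase of gene length, Cx3cr1 exceeded Cx3cl1 by 2831-fold to 10002-fold in the microglia libraries, while in bulk brain the ligand exceeded the receptor by 12.7-fold to 16.2-fold.

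The genes whose profiles over the 10 libraries were nearest to those of this pair were sought among 11923 coding genes, by the root-mean-square distance between centred log2(CPM + 0.5) values. For Cx3cr1 they were the G-protein-coupled receptor gene Gpr34 (distance 0.09), the CSF1 receptor gene Csf1r (0.10) and the metal ion transporter gene Slc11a1 (0.14). For Cx3cl1 they were Crmp1 (0.15), which encodes a protein of axon guidance signalling, Nsg2 (0.17), a neuronal endosomal protein gene, and Syt13 (0.19), a synaptotagmin gene. The pseudocount compresses differences at low levels, since Crmp1 had a fitted log2 difference of -10.28 and Cx3cl1 of -8.90. Because the group difference dominates such profiles, likeness here means mainly a like difference between the groups.

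CXCL12 and its atypical receptor were lower in the sorted cells, while its signalling receptor was higher. Cxcl12 (ENSMUSG00000061353, chromosome 6, 117145496 to 117158328, plus strand) stood at 48.8, 39.2, 52.8, 56.5 and 62.5 CPM in bulk brain. In microglia it stood at 9.30, 9.19, 6.98, 4.50 and 4.88 CPM. The groups did not overlap, and microglia replicates 1 and 2 were the highest of the sorted libraries. The log2 difference was -2.90 ± 0.23 (SE, edgeR adjusted p = 2.6e-07), and the mean of 6.97 ± 2.28 CPM in microglia (SD, n = 5) was 13.4% of the 52.0 ± 8.76 CPM in bulk brain.

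Ackr3 (ENSMUSG00000044337, chromosome 1, 90131702 to 90144473, plus strand) stood at 9.17, 8.57, 7.24, 7.75 and 8.75 CPM in bulk brain and at 1.27, 1.55, 1.12, 0.477 and 0.667 CPM in microglia. The mean of 1.02 ± 0.440 CPM in microglia (SD, n = 5) was 12.3% of that in bulk brain, 8.30 ± 0.784 CPM (log2 difference -3.02 ± 0.30 SE, edgeR adjusted p = 1.6e-06). Replicates 1 and 2 were again the highest of the microglia libraries. Cxcr4 (ENSMUSG00000045382, chromosome 1, 128515936 to 128520030, minus strand) stood at 7.31, 5.39, 8.79, 8.59 and 4.79 CPM in microglia and at 1.56, 2.83, 2.002, 2.11 and 2.28 CPM in bulk brain. Its log2 difference of 1.69 ± 0.24 (SE, edgeR adjusted p = 4.3e-05) was the smallest in size among the 9 genes tested. Bulk brain held 30.9% of the microglial Cxcr4 level. This was above the range of the microglia markers (0.533% for Gpr34 to 2.26% for Sall1). It was also above the ranges of the border-associated macrophage markers (0.788% to 6.18%) and monocyte markers (1.20% to 13.9%). The neutrophil markers ran from 2.36% to 46.7%, but the upper end was Ly6g, with only 12 counts in microglia and 6 in bulk brain. The next highest neutrophil marker was Camp at 22.0%, below Cxcr4. Neutrophil markers summed to 13.2, 7.06, 16.7, 12.9 and 17.3 CPM in microglia replicates 1 to 5. Border-associated macrophage markers summed to 498, 506, 502, 641 and 495 CPM, and monocyte markers to 26.6, 28.7, 24.1, 35.3 and 24.3 CPM. The neutrophil sum was highest in replicate 5 and both other sums in replicate 4, while Cxcr4 was highest in replicate 3 and lowest in replicate 5. A part of other CD11b-positive cells in the Cxcr4 level was not tested.

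The low levels of Cxcl12 and Ackr3 in the sort stood beside those of vessel markers. Microglia kept 12.02% (Ly6c1) to 228% (Pecam1) of the bulk brain level of 10 endothelial markers, with a median of 16.4%, and 9 of the 10 were lower. For 8 mural cell markers the range was 2.68% (Kcnj8) to 72.4% (Tagln), with a median of 7.64%. Tagln did not pass the low-count filter (24 counts in microglia and 45 in bulk brain), and the next highest was Myh11 at 33.5%. For 7 fibroblast markers the range was 1.22% to 5.28%. Mural markers summed to 21.0, 23.2, 12.95, 9.55 and 9.96 CPM in microglia replicates 1 to 5, and endothelial markers to 103, 95.8, 80.7, 77.5 and 71.7 CPM. Both sums were highest in replicates 1 and 2, as were Cxcl12 and Ackr3. The order was not particular to vessel markers. Cxcl14 and the oligodendrocyte precursor sum (2.70, 3.57, 1.62, 2.63 and 1.88 CPM) were also highest in these replicates. The shares of Cxcl12 (13.4%) and Ackr3 (12.3%) also lay within the astrocyte marker range (0.169% to 25.7%), but only through Slc1a3 at its upper end. The next highest astrocyte marker was Aldh1l1 at 2.21%, below both genes. In bulk brain the mural sums were 213 to 247 CPM and the endothelial sums 254 to 315 CPM. No mural or endothelial marker had 0 counts in microglia, and the part of vessel cells in these levels was not tested. Nearest to Cxcl12 in profile were Mamld1 (distance 0.17), a transcriptional co-activator gene, the VEGF receptor gene Flt1 (0.20), itself one of the endothelial markers, and the zinc finger gene Zfp607b (0.22).

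**Figure D2:**
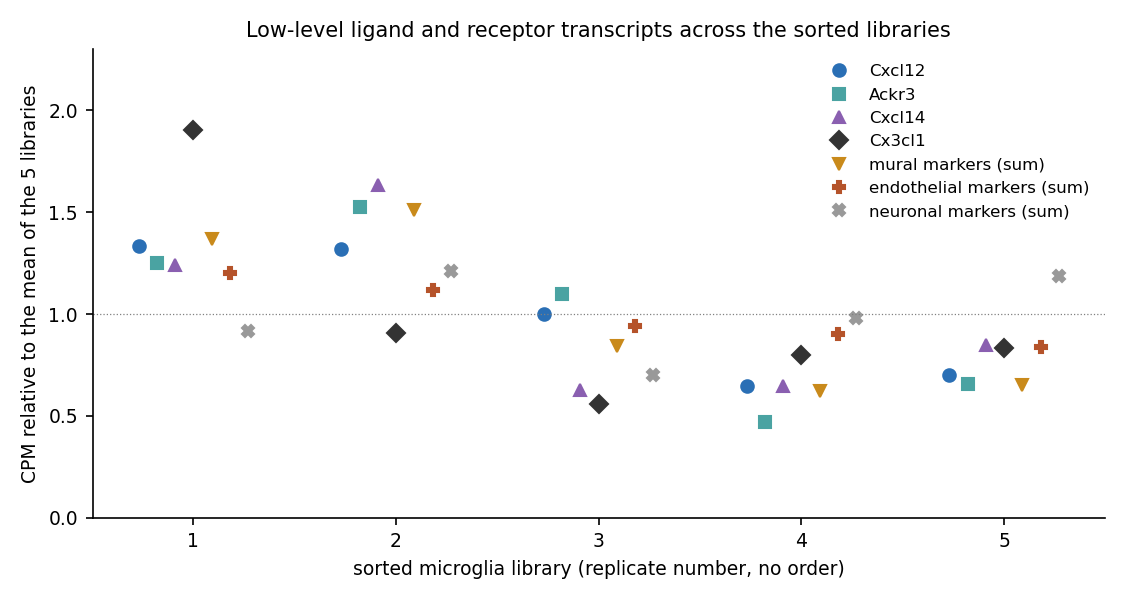
CPM of 4 genes and summed CPM of mural, endothelial and neuronal markers in each of the 5 sorted microglia libraries, relative to the mean of those libraries (dotted line at 1). Cxcl12, Ackr3 and Cxcl14 and the mural and endothelial sums lie above 1 in replicates 1 and 2, and Cx3cl1 reaches 1.90 in replicate 1.

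Cxcl14, a further CXC ligand, was second only to Cx3cl1 per kilobase of gene length in bulk brain, at 42.7 ± 10.1 CPM per kilobase (SD, n = 5) against 110 ± 9.06. Cxcl14 (ENSMUSG00000021508, chromosome 13, 56436456 to 56444364, minus strand) stood at 88.7, 105, 66.5, 62.6 and 66.7 CPM in bulk brain, with replicates 1 and 2 above the other three. In microglia it stood at 0.914, 1.20, 0.463, 0.477 and 0.625 CPM, or 93 counts in all. The log2 difference was -6.72 ± 0.29 (SE, edgeR adjusted p = 1.2e-09). Its residue of 0.944% was above the range of the neuronal markers, below that of endothelial, mural and fibroblast markers, and within those of 10 astrocyte markers (0.169% to 25.7%), 10 oligodendrocyte markers (0.122% to 13.4%) and 5 oligodendrocyte precursor markers (0.069% to 5.26%).

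**Figure D3:**
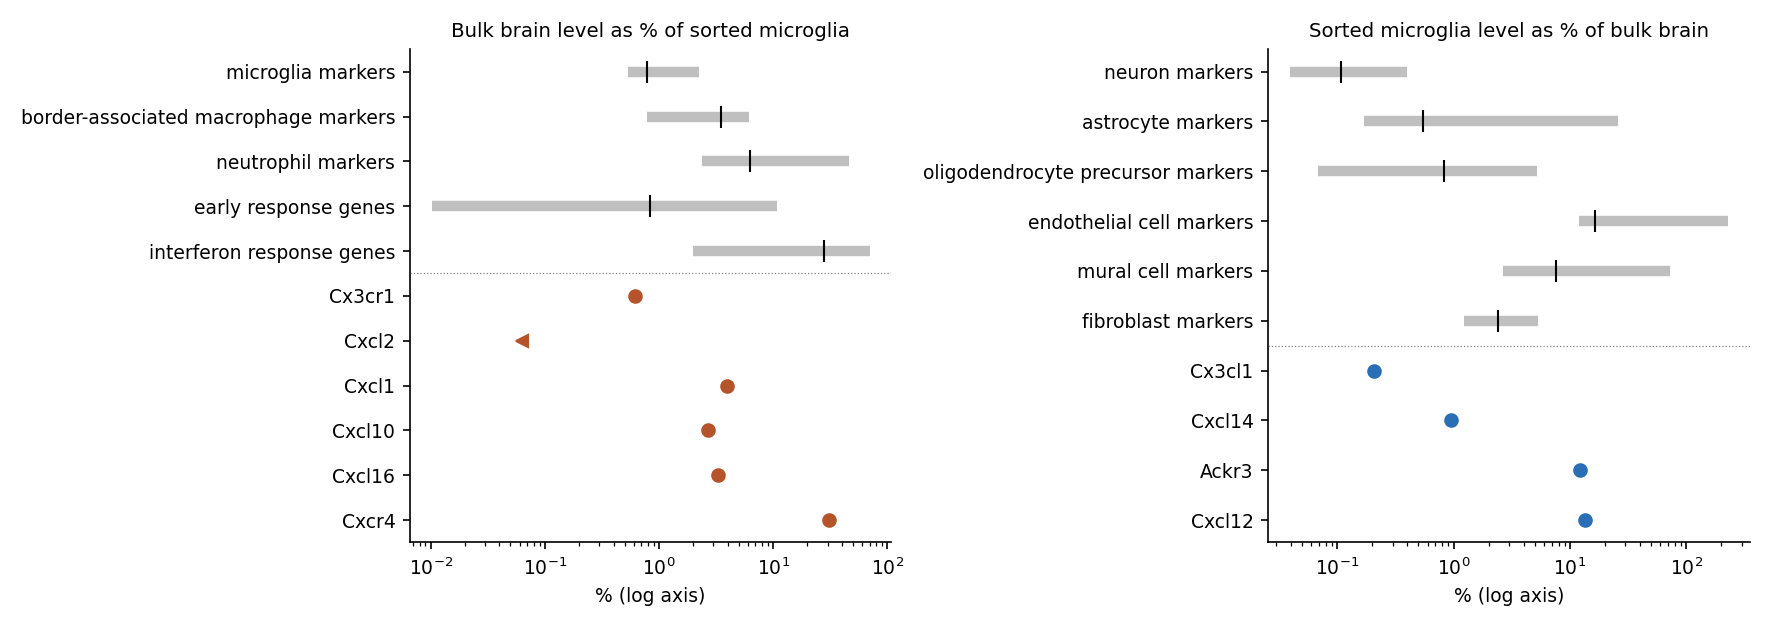
Left, level in bulk brain as a percent of that in sorted microglia for the genes higher in microglia; right, level in microglia as a percent of bulk brain for those lower, both on log axes. Points are genes, grey bars the range and ticks the median of each marker list, and the triangle is the upper limit of 0.0632% that 0 counts allow for Cxcl2. Cx3cr1 lies within the microglia and early response bars, and Cx3cl1 within the neuronal, astrocyte and oligodendrocyte precursor bars. The neutrophil and mural bars end at Ly6g and Tagln, which did not pass the low-count filter.

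Among the ligands higher in the sorted cells, Cxcl16 was the most abundant and the steadiest. Cxcl16 (ENSMUSG00000018920, chromosome 11, 70344809 to 70350810, minus strand) stood at 50.4, 52.1, 53.5, 55.1 and 46.1 CPM in microglia and at 1.12, 2.11, 1.86, 1.69 and 1.68 CPM in bulk brain. The groups were separated by a log2 difference of 4.93 ± 0.17 (SE, edgeR adjusted p = 1.8e-10), with a coefficient of variation of 6.70% among the microglia libraries. Bulk brain held 3.29% of the microglial level, above the microglia markers and within the ranges of border-associated macrophage (0.788% to 6.18%), monocyte (1.20% to 13.9%), neutrophil (2.36% to 46.7%) and early response genes (0.0102% to 10.9%). On the opposite strand Zmynd15 overlaps Cxcl16 by 552 bases and reached 15.3 CPM in the sorted cells but 0.516 CPM in tissue, and reads of the shared stretch cannot be assigned without the strand setting.

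The inducible ligands Cxcl1, Cxcl2 and Cxcl10 were low or at 0 in tissue. Cxcl2 (ENSMUSG00000058427, chromosome 5, 91051730 to 91053797, plus strand) stood at 32.9, 27.4, 23.9, 35.3 and 21.3 CPM in microglia and had 0 counts in all 5 bulk brain libraries. Its mean of 28.1 ± 5.88 CPM (SD, n = 5) was at least 1582-fold higher than in bulk brain, taking as floor 3 counts summed over the bulk libraries (0.0178 CPM, counting error only). The fitted log2 difference of 12.70 ± 0.42 (SE, edgeR adjusted p = 3.9e-08) depends on the prior count and is no bound, and limma-voom gave 10.86. Bulk brain thus held at most 0.0632% of the microglial Cxcl2 level, below the lowest of the 12 microglia markers (Gpr34, 0.533%). Shares of 18 dissociation and early response genes ran from 0.0102% (Ccl3) to 10.9% (Egr1), and the limit for Cxcl2 does not place it above or below the lowest of them. All 18 of these genes were higher in microglia, with sums of 23294 to 28134 CPM against 302 to 458 CPM, and the part of cell isolation in the Cxcl2 level was not tested.

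Cxcl10 (ENSMUSG00000034855, chromosome 5, 92494497 to 92496748, minus strand) stood at 10.97, 12.2, 13.9, 11.02 and 9.55 CPM in microglia and at 0.329, 0.577, 0.255, 0.178 and 0.220 CPM in bulk brain. The log2 difference was 5.18 ± 0.31 (SE, edgeR adjusted p = 1.6e-08). Replicate 3 held the highest value among the microglia libraries, as it did for Cxcl1 (2.08 CPM) and Cxcr4 (8.79 CPM). It also held the highest sum of 10 interferon response genes, 243 CPM against 117 to 143 CPM in the other 4, and 9 of these 10 genes were higher in microglia than in bulk brain (sums of 41.7 to 60.2 CPM), with Ifit1 not past the threshold. Of the further CXC ligands called higher in microglia, Pf4 was highest in replicate 3 (15.6 CPM) and Cxcl9 in replicate 4 (3.02 CPM). No interferon response gene was at 0 counts in either group, and the part of these genes in the Cxcl10 level was not tested. Cxcl10 lies within the span of Art3, which is on the opposite strand and had 0.375 CPM in the sorted cells and 3.21 CPM in tissue.

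Cxcl1 (ENSMUSG00000029380, chromosome 5, 91039100 to 91040974, plus strand) had 27, 36, 54, 16 and 3 counts in microglia and 1, 0, 2, 0 and 4 counts in bulk brain. The levels ran from 0.125 to 2.08 CPM in microglia and from 0 to 0.110 CPM in bulk brain, so that microglia replicate 5 lay just above the highest tissue library. The mean of 1.06 ± 0.743 CPM exceeded 0.0421 ± 0.0483 CPM (SD, n = 5 per group), with p = 0.0079 in a two-sided exact test over all 252 splits, which is the least this permutation can return. With no filter on low counts edgeR gave a log2 difference of 4.38 ± 0.86 (SE, adjusted p = 4.2e-04).

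Cxcl1 and Cxcl2 are neighbours, 10755 bases apart, and share a transcription direction. RefSeq promoter windows (GRCm38.p6, another build than that of the counts), from 250 bases before to 50 after the start, were matched by symbol for 9 of the 10 genes, all but Cxcl16. The NF-kB consensus, the interferon-stimulated response element (GAAA, any pair of bases, GAAA), the AP-1 element TGANTCA and TATAAA, were searched on both strands, a choice made after the sequences and the levels had been seen. The 3 inducible ligands are shown because only their windows, of the 9, held an NF-kB consensus match, which 8.46% of 32851 promoter windows hold. The 250 bases before each start are printed 5′ to 3′ on the gene's strand, with matches to the NF-kB consensus and the response element in capitals.
Cxcl1, chr5:90890995-90891244, plus strand: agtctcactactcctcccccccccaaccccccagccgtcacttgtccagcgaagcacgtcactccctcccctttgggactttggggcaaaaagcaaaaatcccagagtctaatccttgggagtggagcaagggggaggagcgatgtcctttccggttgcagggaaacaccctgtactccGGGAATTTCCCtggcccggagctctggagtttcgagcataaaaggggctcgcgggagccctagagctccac
Cxcl2, chr5:90903649-90903898, plus strand: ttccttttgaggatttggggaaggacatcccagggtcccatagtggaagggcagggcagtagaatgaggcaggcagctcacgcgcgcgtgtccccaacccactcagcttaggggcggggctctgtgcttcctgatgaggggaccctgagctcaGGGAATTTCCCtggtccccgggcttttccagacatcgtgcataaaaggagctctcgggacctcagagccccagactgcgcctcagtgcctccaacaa
Cxcl10, chr5:92348890-92349139, minus strand: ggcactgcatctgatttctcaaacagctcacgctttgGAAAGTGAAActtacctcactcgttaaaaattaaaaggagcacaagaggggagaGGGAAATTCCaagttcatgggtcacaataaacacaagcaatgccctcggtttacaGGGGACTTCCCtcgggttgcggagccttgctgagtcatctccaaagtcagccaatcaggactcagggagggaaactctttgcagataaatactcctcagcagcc

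Cxcl1 and Cxcl2 carried the same 11 letters, GGGAATTTCCC, which match the consensus on both strands, starting 71 and 97 bases before the start. Cxcl10 carried GGGAAATTCC at 159 bases and GGGGACTTCCC at 104 bases before the start. The response element stood 213 bases before the start of Cxcl10 (GAAAGTGAAA) and 172 bases before that of Cxcl14 (GAAACAGAAA), and 3.44% of all windows hold one. TGANTCA matched once, in Cxcl10, and is found in 7.81% of windows. TATAAA, found in 13.6% of windows, matched 6 bases before the start in Cx3cl1, 32 and 30 bases before it in Cxcr4 and 8 bases before it in Ackr3. These matches describe letters in a window and not binding.

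Per kilobase of gene length, the order of the 10 genes differed between the groups. In microglia Cx3cr1 led at 1267 ± 26.8 CPM per kilobase (SD, n = 5), followed by Cxcl16 (17.0 ± 1.14), Cxcl2 (13.6 ± 2.84), Cxcl10 (5.12 ± 0.719) and Cxcr4 (3.86 ± 1.01). The values of Cxcl16 and Cxcl2 overlapped between libraries, as did those of Cxcl10 and Cxcr4. Cxcl12 (0.852 ± 0.279), Cxcl1, Cxcl14, Ackr3 and Cx3cl1 (0.229 ± 0.119) closed the order, each overlapping the next. In bulk brain Cx3cl1 and Cxcl14 were followed by Cx3cr1 (7.85 ± 0.901) and Cxcl12 (6.36 ± 1.07), which overlapped, and by Ackr3 (2.48 ± 0.234), Cxcr4 (1.19 ± 0.255), Cxcl16 (0.560 ± 0.120) and Cxcl10 (0.138 ± 0.0703), which were each clear of the next. For the CXCL12 axis, Cxcr4 exceeded Cxcl12 by 2.65-fold to 8.64-fold in microglia, and Cxcl12 exceeded Cxcr4 by 3.06-fold to 6.92-fold in bulk brain.

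**Figure D4:**
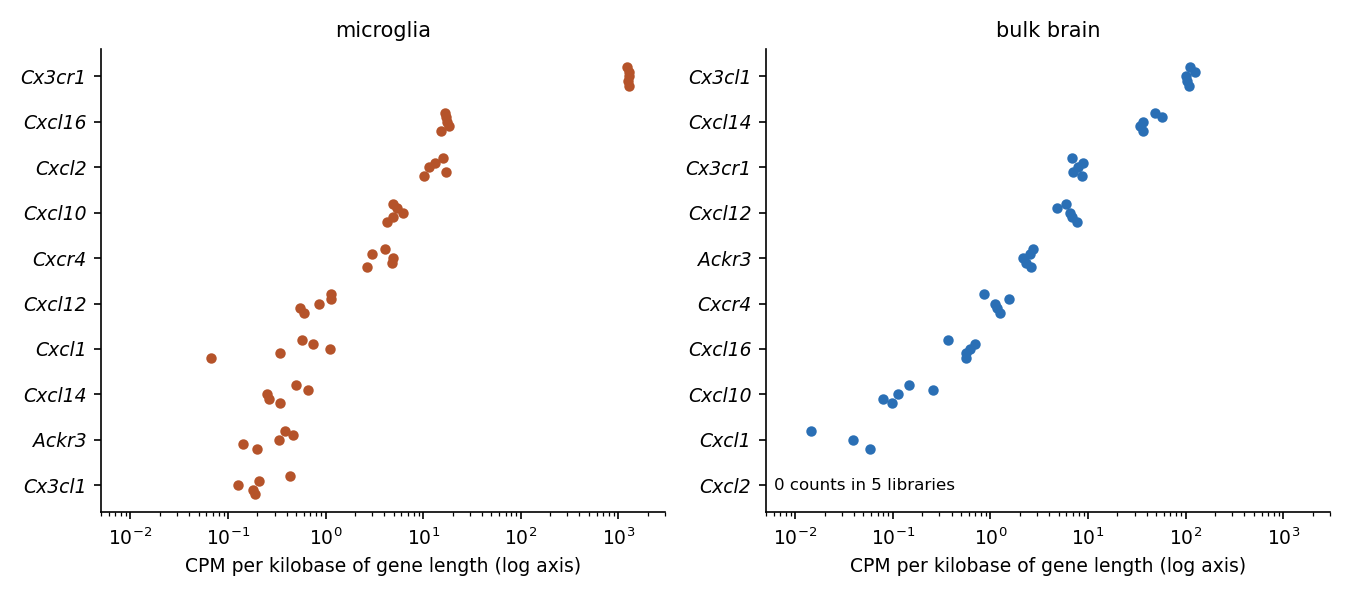
CPM per kilobase of gene length on a log axis, 1 point per library, with genes ordered by their mean in microglia (left) and in bulk brain (right); libraries with 0 counts are not drawn. Cx3cr1 leads in microglia and Cx3cl1 in bulk brain, and Cxcl2 goes from the third place to 0 counts.

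Within bulk brain, replicates 1 and 2 held 88.7 and 105 CPM of Cxcl14 against 62.6 to 66.7 CPM in replicates 3 to 5, and 48.8 and 39.2 CPM of Cxcl12 against 52.8 to 62.5 CPM. Cxcl10 was also higher in replicates 1 and 2 (0.329 and 0.577 CPM against 0.178 to 0.255 CPM). Replicate 2 held the highest value of 6 of the 9 genes detected in bulk brain: Cx3cl1, Cxcl10, Cxcl14, Cxcl16, Cx3cr1 and Cxcr4. The share of all genes highest in this library was not counted. It also held the highest sums of microglia (274 CPM), neuronal (7653 CPM), endothelial (315 CPM) and mural markers (247 CPM), so the trait was not particular to these genes. Its oligodendrocyte precursor sum (101 CPM) was the lowest. Astrocyte markers summed to 3878 and 3667 CPM in replicates 1 and 2 and to 4627 to 4693 CPM in replicates 3 to 5, and oligodendrocyte markers to 7607 and 8087 CPM against 6065 to 6163 CPM. Whether a difference in tissue make-up has a part in these gaps was not tested.

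Of 9 further CXC ligands, 3 were tested: Cxcl9, a T cell attractant (1.81 ± 0.746 CPM in microglia, SD, n = 5, and 0 counts in bulk brain, at least 101-fold higher), and the platelet factor gene Pf4 (13.3 ± 2.07 CPM against 0.744 ± 0.496 CPM, log2 difference 4.14) were higher, and Cxcl5, a neutrophil attractant, was lower (0 counts against 0.741 ± 0.348 CPM, at least 31-fold). Cxcl3, Cxcl11, Cxcl13 and Cxcl17 held 4 to 44 counts over the 10 libraries, and Cxcl15 and Ppbp held 0. Of 6 further receptors, Cxcr3, the receptor of CXCL9 and CXCL10, and Cxcr6, the receptor of CXCL16, were higher, at 1.17 ± 0.620 and 2.04 ± 0.455 CPM in microglia. The decoy receptor gene Ackr1 was lower, with 0.251 ± 0.183 CPM in the sorted cells and 44.4 ± 17.8 CPM in tissue (edgeR adjusted p = 1.6e-08 for a log2 difference of -7.43 ± 0.44 SE), with 53.5 and 71.5 CPM in bulk brain replicates 1 and 2 and 29.8 to 34.1 CPM in the others. Cxcr2, the receptor of CXCL1 and CXCL2, had 42 counts over the microglia libraries and 0 in bulk brain, and Cxcr1 and Cxcr5 were likewise too low to be tested.

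Most genes of the protease and transducer lists were higher in microglia, and those of the desensitization list were not. These lists were chosen with earlier results of these data known, so their counts describe the chosen genes only. Of 9 protease genes, 7 were higher and 0 lower, with a median log2 difference of 2.34 against -0.14 for all genes tested; Ctss, which encodes cathepsin S, rose most (log2 difference 6.78), and Dpp4 (-0.63, edgeR adjusted p = 0.075) and Mmp9 (0.63, 0.090) did not pass. The sheddases of fractalkine, named here outside the naming rule, stood at 464 ± 19.7 CPM against 91.5 ± 20.4 CPM for Adam10 and at 430 ± 16.8 CPM against 22.2 ± 2.49 CPM for Adam17 (SD, n = 5). Of 18 Gi-coupled transducer genes, 12 were higher and 4 lower (median 1.79), from the exchange factor gene Vav1 (log2 difference 7.49) to Gnai1, which encodes an inhibitory G-protein subunit (-8.58). Of 6 desensitization genes, 2 were higher and 3 lower (median -0.19), with the arrestin gene Arrb2 at 508 ± 13.9 CPM against 35.8 ± 10.8 CPM and the receptor kinase gene Grk5 at 6.90 ± 1.05 CPM against 29.0 ± 6.67 CPM. Cd74, whose product pairs with CXCR4 as a receptor of the cytokine MIF, was higher (389 ± 56.5 CPM against 5.74 ± 2.29 CPM), and Mif was lower (14.0 ± 1.36 CPM against 99.8 ± 46.3 CPM). In all, 26 of the 41 pathway genes tested were higher and 10 lower, where 37.2% and 43.9% of all genes were.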

How the data were processed

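Poly-A selected RNA-seq libraries of 5 sorted microglia and 5 bulk brain samples were used, which the labels place in 1 batch. The authors deposited raw counts per gene with no normalization; the build GRCm39 (mm39), featureCounts 2.0, HISAT2 2.2.1 and CASAVA are named, with no role or order, per the submitters' processing notes. The counting's strand setting and its rule for reads mapping to several places: not given in the sources used here. Gene lengths and coordinates come from the same deposited table.

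Group was the sole term of a quasi-likelihood fit in edgeR 4.0.16 (with limma 3.58.1 under R 4.3.3), run on the 18969 genes that filterByExpr kept, after TMM scaling. P-values were adjusted by Benjamini-Hochberg over all genes tested, with a threshold of 0.05. CPM use TMM-scaled totals. Standard errors were derived from each log2 difference and its F statistic (absolute difference over the root of F). Floors are 3 counts over a group and cover counting error only. Levels and plots were made in Python 3.11.15 (matplotlib 3.10.9, pandas 2.3.3, SciPy 1.17.1).

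The members, the gene lists and the alternatives were chosen with earlier results of these data known. By rule, the text names all members, the further family ligands and receptors, the gene with the largest called change in each direction in each pathway list (at least 1 CPM in either group), and the 3 genes nearest in profile to Cx3cr1, Cx3cl1 and Cxcl12 (at least 5 CPM). Alternatives were other scalings, filters and tests (DESeq2 1.42.0, limma-voom), the replicate number as a block, subsets of bulk brain and leaving out each library.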

Additional observations from a re-analysis of the deposited data

Results flagged for a closer look

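Microglia replicate 1 held Cx3cl1 at 1.71 CPM, far from the other 4 sorted libraries, which lay between 0.501 and 0.814 CPM. Chance alone sets a library apart in this way in about 1 of 20 groups. The log2 difference without microglia replicate 1 was -9.25 ± 0.19 (SE, edgeR adjusted p = 9.2e-11), against -8.90 with it.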

How the results depend on the processing

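Each of the 9 tested genes kept its direction and its call under all 20 alternatives run: log2 differences ran from -9.25 to -8.74 for Cx3cl1, 7.15 to 7.40 for Cx3cr1, -3.20 to -2.75 for Cxcl12, -3.21 to -2.83 for Ackr3, -7.11 to -6.58 for Cxcl14, 10.86 to 12.82 for Cxcl2, 4.59 to 5.56 for Cxcl10, 4.693 to 4.996 for Cxcl16 and 1.49 to 1.81 for Cxcr4, whose highest adjusted p was 0.0018. Cxcl1 was tested under 9 of the alternatives and passed in each (3.87 to 5.78). The median of all genes moved from -0.14 to -0.31 with median-of-ratios size factors and to -0.33 with library size alone, and it was -0.85 over the 36812 genes tested with no low-count filter. Libraries of the same replicate number showed no likeness between the groups (correlations of deviations from -0.045 to 0.019, and no library matched its own number best). Whether sorted and bulk libraries share animals is not in the labels. Sorted cells and tissue may vary for different reasons, so these correlations cannot decide it. With the replicate block 5 members were higher and 4 lower, as without it, and of all genes 6858 were higher and 8037 lower. Cxcl1, Cxcl14, Ackr3 and Cx3cl1 in microglia rest on 93 to 136 counts each, which limits their precision.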
